A study of Homo sapiens with 2 samples.

Results

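The proteasome is the barrel-shaped protease that degrades proteins tagged with ubiquitin, and its subunit genes were followed here in SAS, an established cell line from a squamous cell carcinoma of the human tongue. The genes were all those whose current symbol begins with PSMA, PSMB, PSMC, PSMD, PSME, PSMF or PSMG followed by a digit and that had a probe naming that gene alone, without pseudogenes and antisense RNAs. They were 50 genes with 69 probes, of 18336 genes and 31741 probes on the array. The cells called shATMIN carried a short hairpin RNA against ATMIN, a zinc finger protein that acts in DNA damage signalling, and the control cells are labelled neo. Each group was 1 sample of total RNA, labelled with Cy5 and listed with 2 arrays, and 1 intensity per probe and sample was deposited. The labels give both groups the same treatment text, in which hairpin plasmids were introduced with a lipid reagent and resistant clones were grown in 3 µg/mL puromycin. What the neo cells carried, how many clones made up each sample and the sequence of the hairpin are not stated in the labels. With 1 sample per group no difference could be tested, no p-value is given, and the precision of each value is limited by the small number of arrays.

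The chamber of the proteasome, the 20S core, is a stack of rings of alpha and beta subunits, and only a few of the beta subunits cut protein chains. The 19S cap sits on its ends, where a base with ATPases unfolds substrates and a lid removes ubiquitin. Interferons induce 3 alternative catalytic subunits that are built into new particles in place of the standard ones, forming the immunoproteasome, which shapes the peptides shown on HLA class I. Further genes encode activators, an inhibitor and chaperones that assemble the particle.

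ATMIN itself read an intensity of 61.5 in the shATMIN sample and 105 in the neo control, a difference of -0.76 on the scale of log2(intensity + 1) that is used throughout as shATMIN minus neo. Its other probe read 26.5 in the shATMIN sample and 51.5 in the neo control. All 10 squamous epithelial markers were above the dim filter, a mean log2 level of 5.90 that a gene had to reach to be compared, with summed intensities of 60368 in the shATMIN sample and 67567 in the neo control. Of 9 leukocyte markers on the array 5 passed that filter, CD14, CD68, CD74, HLA-DRA and ITGAM, while PTPRC, CD3E, LYZ and CSF1R lay below it. The sums over all 9 were 3437 in the shATMIN sample and 3708 in the neo control, mostly from CD14. Of 8 endothelial markers 4 passed, with sums of 706 in the shATMIN sample and 732 in the neo control, and of 9 fibroblast markers 4 passed, with sums of 1694 in the shATMIN sample and 1777 in the neo control. Among the squamous markers TP63 at -1.19, KRT6A at 1.00, KRT14 at 0.99 and SFN at -0.48 lay furthest from 0. Second compared probes gave -0.06 for TP63 and -0.37 for SFN. Furthest from 0 among the leukocyte markers were CD68 at -0.64, ITGAM at 0.54, CD74 at 0.25 and CD14 at -0.14. The endothelial markers CDH5, TEK, VWF and PECAM1 gave -0.60, 0.40, -0.17 and 0.15, and the fibroblast markers COL1A1, FAP, PDGFRA and LUM lay between -0.12 and 0.01. In such bulk RNA, fewer cells of a type and less RNA per cell cannot be told apart, and the part of these levels in the results was not tested. The median intensity over all probes was 106 in the shATMIN sample and 109 in the neo control, the upper quartile was 535 in the shATMIN sample and 629 in the neo control, and the median difference over all 12421 compared genes was -0.16.

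Of the 50 proteasome genes, 47 passed the dim filter, and as deposited they stood close together and close to 0. None differed by 2-fold in either direction, against 1.34% of all compared genes lower by that much and 0.459% higher by that much. At 1.5-fold, 1 of the 47 was lower, against 12.2% of all compared genes, and 0 were higher, against 1.9%. The median difference of the 47 was -0.06 and the range -0.64 to 0.35. As deposited 35 of the 47, or 74.5%, were lower and 12 higher, but this split turned with the scaling: 9 were lower after each sample was scaled to its 75th percentile and 16 after the trend of the difference on level was removed. The same turn was seen in all compared genes, of which 70.7% were lower as deposited, 41.2% after that scaling and 48.5% with the trend removed. Measured against the median of all compared genes, 28 of the 47 lay above it and 19 below it.

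**Figure D1:**
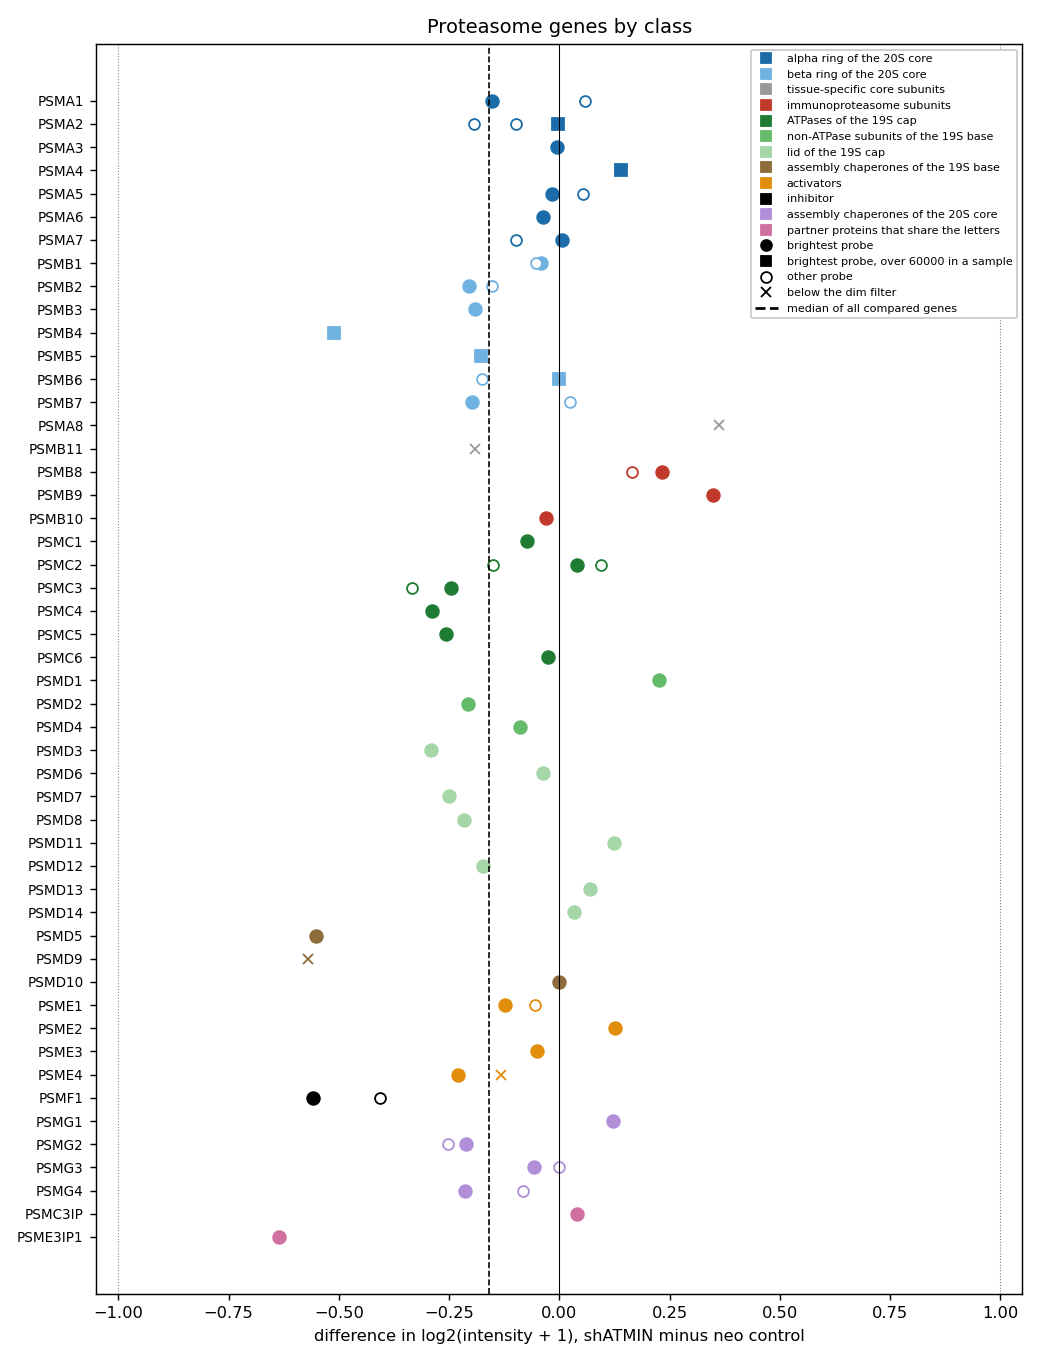
Difference in log2(intensity + 1), shATMIN minus neo control, for each probe of the 50 proteasome genes, coloured by class. Filled symbols are the brightest probe of a gene, squares those over 60000 in a sample, open circles further probes, crosses probes below the dim filter; the dashed line is the median of all compared genes, -0.16, and the dotted lines mark 2-fold. PSMB8 and PSMB9 stand on the right, and PSMB4, PSMD5, PSMF1 and PSME3IP1 on the left.

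The differences of the proteasome genes had an SD of 0.20, against 0.38 over all compared genes. Because many proteasome genes are read brightly, the 1994 other genes within the middle 50% of their level range were taken as a second background. Their SD was 0.30 and their median -0.20. These are called genes of like level, but the range ends at a log2 level of 14.6. Most core genes are brighter than that and were not matched in level. An absolute difference of at most 0.25 was found in 38 of the 47 proteasome genes, or 80.9%, against 52.2% of all compared genes and 52.9% of the other genes of like level. This share was counted as deposited only. It mixes width with position, since the medians were -0.06, -0.16 and -0.20. It also includes PSMA2 and PSMB6, whose brightest probes were saturated in both samples and cannot show a difference. The SD of 0.20 includes them too. Free of position, the middle 50% of the differences spanned 0.22 in the proteasome genes, 0.43 in all compared genes and 0.36 in those of like level. Without probes over 60000 it spanned 0.21 in 44 proteasome genes and 0.43 in all compared genes. Against the median of those genes of like level, 32 of the 47 lay above and 15 below. Probes of the same proteasome gene also lay close together, with an SD of 0.09 between probes over 16 genes, against 0.34 over all 2973 genes with several compared probes and 0.30 over 679 such genes of like level. The proteasome genes spanned a median of 13.5 kb of genome and all compared genes 28.3 kb, and 3909 other genes in the middle 50% of the span range of the proteasome genes had a median difference of -0.15. The part of gene span and level in the narrow range was not tested.

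**Figure D2:**
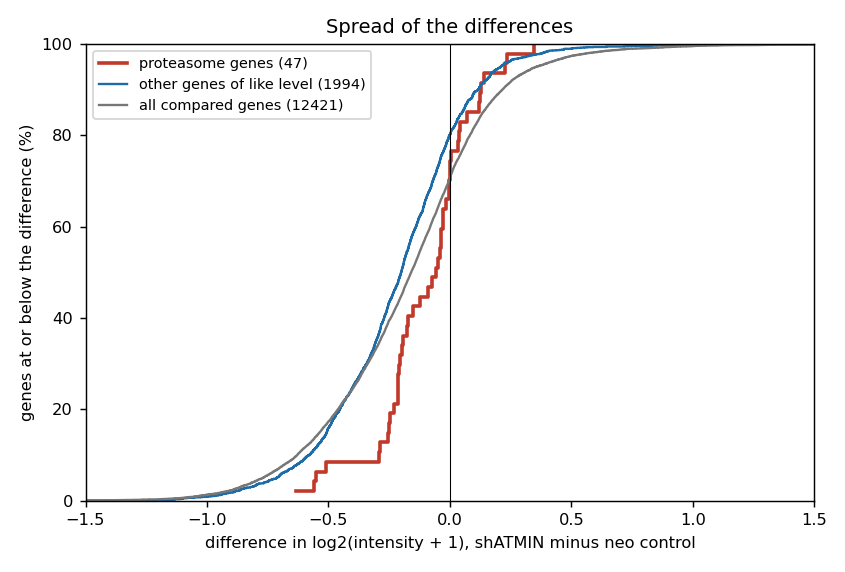
Cumulative share of genes (y axis, %) at or below each difference in log2(intensity + 1), shATMIN minus neo control (x axis), for the 47 compared proteasome genes, the 1994 other genes of like level and all 12421 compared genes. The proteasome curve is the steepest of the 3 between -0.3 and 0.25.

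**Figure D3:**
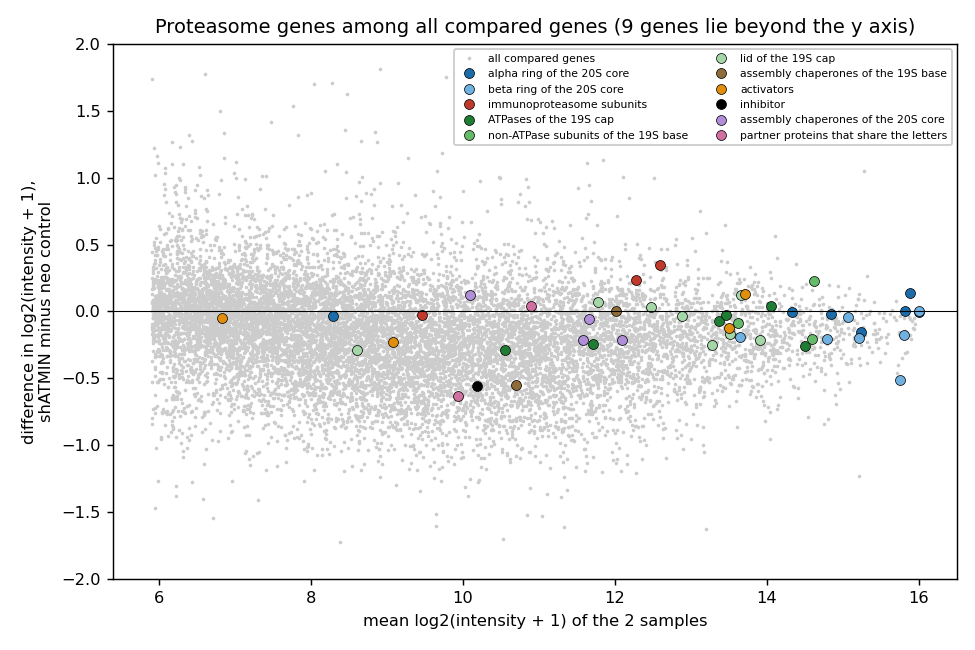
Mean log2(intensity + 1) of the 2 samples (x axis) and difference, shATMIN minus neo control (y axis), of all compared genes in grey and of the proteasome genes in the colour of their class; 9 genes lie beyond the y axis. Most core and cap genes lie at bright levels within a narrow band around or just below 0.

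The alpha ring of the 20S core, which gates the entry of substrates, was almost level between the samples as deposited, with a median of -0.0050 and a range from -0.15 to 0.14 over 7 genes, 5 lower and 2 higher. After scaling to the 75th percentile its median was 0.23 with 0 of 7 lower, and it was 0.14 with quantile normalization and 0.13 with the trend on level removed. PSMA3 read 20462 in the shATMIN sample and 20533 in the neo control, PSMA5 read 29183 in the shATMIN sample and 29535 in the neo control, and PSMA7 read 57655 in the shATMIN sample and 57433 in the neo control. The differences of these 3 lay between -0.02 and 0.01 on their brightest probes, and second probes gave 0.05 for PSMA5 and -0.10 for PSMA7. PSMA6 read 309 in the shATMIN sample and 317 in the neo control. PSMA1 read 36652 in the shATMIN sample and 40746 in the neo control, a difference of -0.15, while its second probe gave 0.06. PSMA4 read 63047 in the shATMIN sample and 57268 in the neo control, a difference of 0.14 that lies near the top of the scanner range. PSMA2 was at that top, at 65405 in the shATMIN sample and 65510 in the neo control, so its direction cannot be read there. Its 2 other probes, which were not saturated, gave -0.19 and -0.10.

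The beta ring, which holds the catalytic subunits, had all 7 genes lower as deposited, PSMB6 without a readable direction, but 1 of 7 after scaling to the 75th percentile, with a deposited median of -0.19 that lay close to the -0.16 of all compared genes. PSMB1, a structural subunit, read 33737 in the shATMIN sample and 34718 in the neo control. PSMB2 and PSMB3, also structural, gave -0.20 and -0.19. These differences are close to the general shift. PSMB4, a structural subunit that closes the ring during assembly, read 45999 in the shATMIN sample and was saturated in the neo control at 65510, so that it was at least 1.42-fold higher in the neo control. It had a single probe, and it stayed lower in the shATMIN sample in each of the settings in which it was measured, at -0.51 to -0.28. PSMB5, the chymotrypsin-like subunit, read 53683 in the shATMIN sample and 60684 in the neo control, a difference of -0.18 from its single probe, which was near the top of the scale in the neo control. PSMB7, the trypsin-like subunit, gave -0.20 on one probe and 0.02 on the other. PSMB6, the caspase-like subunit, was at the scanner maximum in the shATMIN sample and in the neo control, and its other probe read 35254 in the shATMIN sample and 39791 in the neo control, a difference of -0.17.

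The immunoproteasome subunits PSMB9 and PSMB8 had the highest differences of the compared proteasome genes as deposited. The place of PSMB8 over PSMD1 was lost with the mean of the probes, at 0.20 for PSMB8 and 0.23 for PSMD1, and with trends on level and gene span removed, at 0.43 for PSMB8 and 0.44 for PSMD1. PSMB9, which had a single probe, read 6969.9 in the shATMIN sample and 5478 in the neo control. It was 1.27-fold higher in the shATMIN sample, or 0.35 on the log2 scale. PSMB8 read 5373 in the shATMIN sample and 4572 in the neo control, a difference of 0.23, and its second probe gave 0.17. Both were higher in the shATMIN sample in each setting, from 0.35 to 0.58 for PSMB9 and from 0.20 to 0.47 for PSMB8, and neither reached 1.5-fold. At or above the difference of PSMB9 were 5.16% of all compared genes and 2.36% of those of like level, and at or above that of PSMB8 were 9.07% of all compared genes and 4.11% of those of like level. PSMB10 read 695 in the shATMIN sample and 709.5 in the neo control, a difference of -0.03 that became 0.20 with scaling to the 75th percentile and 0.24 with the trend on level removed. The recovered single readings of PSMB10 overlapped between the samples, with 2 candidate pairs of readings in the shATMIN sample, of which the closer pair was used.

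Set against the standard subunit that each one replaces, the difference of PSMB8 was 0.41 above that of PSMB5, whose probe was near the top of the scale. That of PSMB9 was 0.52 above that of PSMB6 on the PSMB6 probe that was not saturated. That of PSMB10 was 0.17 above the difference of PSMB7 on its brightest probe and gave -0.05 against the other. For PSMB8 over PSMB5 the gap lay between 0.38 and 0.52 over the settings that gave a value. These gaps compare a change of one probe with that of another and say nothing on the amounts of the subunits.

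**Figure D4:**
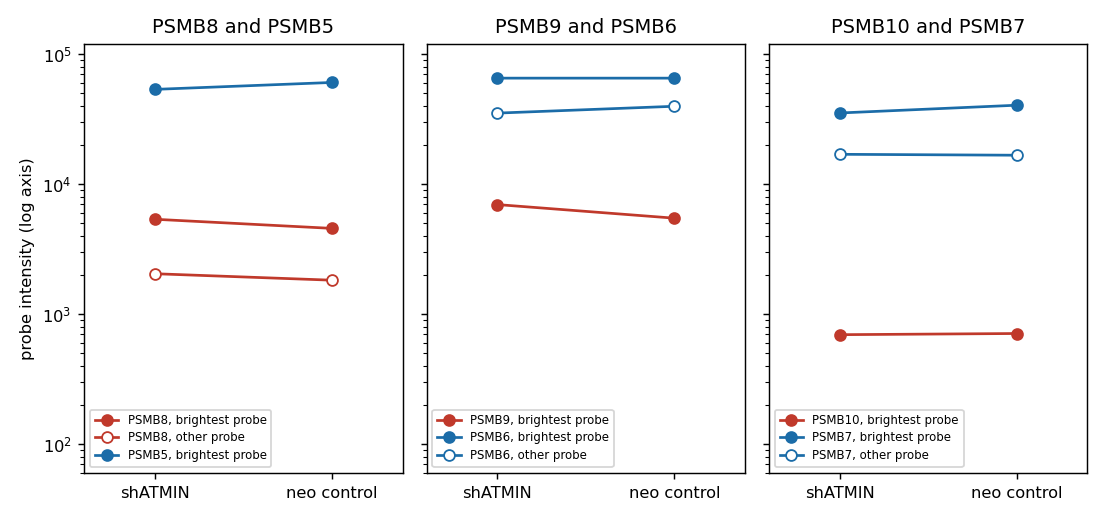
Intensity (log axis) in the shATMIN sample and the neo control for each probe of the immunoproteasome subunits (red) and of the standard subunits they replace (blue); filled circles are the brightest probe of a gene. The slopes can be compared between probes and the heights cannot: the lines of PSMB8 and PSMB9 descend towards the neo control, while those of PSMB10, PSMB5, PSMB6 and PSMB7 ascend or are level, except the second PSMB7 probe, which descends slightly. The brightest PSMB6 probe is saturated in both samples and its slope is not a measurement.

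PSMB8 and PSMB9 lie beside the peptide transporter genes TAP2 and TAP1 in the HLA region, in the order TAP2, PSMB8, TAP1, PSMB9, and PSMB9 and TAP1 are read in opposite directions from neighbouring starts. TAP1 read 9487 in the shATMIN sample and 10891 in the neo control, a difference of -0.20, and TAP2 read 386 in the shATMIN sample and 662 in the neo control, a difference of -0.78. As deposited the neighbours did not share the direction of PSMB8 and PSMB9. TAP1 was the median gene of the interferon and peptide loading list described further on, whose median became 0.03 with scaling to the 75th percentile.

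The 250 bases before the starts of PSMB8, PSMB9, PSMB10 and PSMB5 are shown so that the immunoproteasome genes can be read beside a standard catalytic subunit. They are from RefSeq, build GRCh38.p14, each on the strand of its gene. Capitals mark TGANNNNGC, a loose pattern for the core of the antioxidant response element, called the antioxidant core below. Any base was allowed at each N, so a match need not be a site for NFE2L1 or NFE2L2. Capitals also mark the CCAAT box (CCAAT) and an interferon response motif (a pair of GAAA blocks with 2 bases between them). All were searched on both strands. No base lies in more than 1 of these motifs.
PSMB8, chr6:32844680-32844929, minus strand: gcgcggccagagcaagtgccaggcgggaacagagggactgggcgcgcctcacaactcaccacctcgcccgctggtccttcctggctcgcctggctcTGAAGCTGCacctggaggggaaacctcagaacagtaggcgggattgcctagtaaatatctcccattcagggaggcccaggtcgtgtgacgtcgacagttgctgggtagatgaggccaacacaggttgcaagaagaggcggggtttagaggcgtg
PSMB9, chr6:32853942-32854191, plus strand: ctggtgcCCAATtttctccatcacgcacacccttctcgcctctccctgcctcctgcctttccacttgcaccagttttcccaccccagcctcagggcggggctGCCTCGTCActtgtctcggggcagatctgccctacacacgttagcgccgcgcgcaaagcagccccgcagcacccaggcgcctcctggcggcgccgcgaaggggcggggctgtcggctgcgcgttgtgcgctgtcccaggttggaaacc
PSMB10, chr16:67936851-67937100, minus strand: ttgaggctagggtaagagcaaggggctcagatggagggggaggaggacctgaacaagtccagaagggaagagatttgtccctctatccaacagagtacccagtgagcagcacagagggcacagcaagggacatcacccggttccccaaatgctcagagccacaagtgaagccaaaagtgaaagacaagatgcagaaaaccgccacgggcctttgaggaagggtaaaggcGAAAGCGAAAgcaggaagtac
PSMB5, chr14:23035221-23035470, minus strand: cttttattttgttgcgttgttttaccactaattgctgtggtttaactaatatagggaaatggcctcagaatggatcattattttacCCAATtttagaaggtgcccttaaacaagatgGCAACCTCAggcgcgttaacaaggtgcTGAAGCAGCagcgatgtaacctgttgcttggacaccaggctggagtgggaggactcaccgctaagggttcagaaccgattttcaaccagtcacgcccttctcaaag
The interferon motif is found in the PSMB10 window, close to the start, and in none of the other 3, and the PSMB5 window holds 2 antioxidant cores where those of PSMB8 and PSMB9 hold 1 each. Windows were given for 44 of the 50 genes. The antioxidant core was found in 24 of the 44, or 54.5%, against 35.5% of 27305 windows of all genes, the CCAAT box in 20, or 45.5%, against 33.0%, and the interferon motif in 5, or 11.4%, against 3.07%. Of the 41 genes with both a window and a compared value, the 21 with an antioxidant core had a median difference of -0.18 and the 20 without one -0.03. The other 2 motifs went the opposite way. The 19 genes with a CCAAT box had a median of -0.04 and the 22 without one -0.14. The 5 with an interferon motif had -0.03 and the 36 without one -0.10. Each of these groups spanned 0, and no split was tested. A match of letters is a description and not a bound site.

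In the 19S cap, 12 of 17 genes were lower and 5 higher as deposited, with a median of -0.09, whereas 5 were lower after scaling to the 75th percentile. The deposited count lies at the 70.7% of all compared genes that were lower. The cap thus lay slightly above the median of all compared genes, by 0.07. Among the ATPases of the base, PSMC3, PSMC4 and PSMC5 gave -0.24, -0.29 and -0.26, while PSMC1, PSMC2 and PSMC6 lay between -0.07 and 0.04. Further probes of PSMC2 gave 0.09 and -0.15. PSMC3 read 3069 in the shATMIN sample and 3637 in the neo control. PSMC5 read 21092 in the shATMIN sample and 25188 in the neo control, and PSMC4 read 1352 in the shATMIN sample and 1651 in the neo control. The second PSMC3 probe gave -0.34, and its recovered readings were 378 and 389 in the shATMIN sample against 483 and 485 in the neo control, which did not overlap.

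The large scaffold subunits of the base, PSMD1 and PSMD2, lay on either side of 0 as deposited, but both were higher after scaling to the 75th percentile, at 0.46 and 0.03. PSMD1, which binds the ubiquitin receptor ADRM1, read 27178 in the shATMIN sample and 23237 in the neo control, a difference of 0.23 and the highest of the cap. PSMD2, a docking site for proteins that deliver ubiquitylated substrates, read 22867 in the shATMIN sample and 26409 in the neo control, a difference of -0.21. PSMD4, itself a ubiquitin receptor, gave -0.09, and a further probe that names both PSMD4 and PIPSL read 3377 in the shATMIN sample and 3308 in the neo control and was left out. PSMD1 and PSMD2 had 1 probe each.

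The lid ranged from -0.29 to 0.12 over 8 genes. PSMD14, the metalloprotease that cuts ubiquitin chains off substrates, read 5730 in the shATMIN sample and 5600.2 in the neo control, a difference of 0.03. PSMD7, its inactive partner, read 9100.0 in the shATMIN sample and 10828 in the neo control, a difference of -0.25. The deposited differences of the partners were apart by less than 0.34, the SD between probes of one gene over the array. They were apart by more than 0.09, that SD over the proteasome genes with several probes. PSMD11, a lid scaffold that clamps the cap to the core, was the highest of the lid at 0.12, with 13418 in the shATMIN sample and 12318 in the neo control. PSMD3 was the lowest at -0.29, with 349 in the shATMIN sample and 428 in the neo control, and its recovered readings overlapped between the samples. The remaining 4, PSMD6, PSMD8, PSMD12 and PSMD13, lay between -0.22 and 0.07.

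A chaperone and an inhibitor, which act on the particle without being part of it when it works, were among the lowest of the 47 compared proteasome genes. PSMD5, a chaperone of the base that is released before the cap is complete, read 1368 in the shATMIN sample and 2006 in the neo control, 1.47-fold higher in the neo control. PSMF1, known as PI31 and first described as an inhibitor of the core, read 961 in the shATMIN sample and 1415 in the neo control, a difference of -0.56, and its second probe gave -0.41. The recovered readings of that second probe were 403 and 416 in the shATMIN sample against 514 and 573 in the neo control and did not overlap. Both genes were lower in each setting, from -0.55 to -0.27 for PSMD5 and from -0.56 to -0.25 for PSMF1. Their size does not set them apart, since 14.1% of all compared genes were at or below the difference of PSMD5 and 13.6% at or below that of PSMF1.

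PSMD9, another chaperone of the base, read 45.5 in the shATMIN sample and 68.0 in the neo control and fell short of the dim filter, with a difference of -0.57 of uncertain size. PSMD10, the third of these chaperones and known as gankyrin, read 4124 in the shATMIN sample and 4126 in the neo control. PSMD10 was level as deposited, and it was higher, at 0.23, after scaling to the 75th percentile and 0.24 with the trend on level removed. Of the 4 chaperones of the core 3 were lower as deposited and 0 after scaling to the 75th percentile: PSMG2, which pairs with PSMG1 to guide the alpha ring, gave -0.21 and -0.25 on its 2 probes, PSMG4 -0.21 and -0.08, and PSMG3 -0.06 and 0.00. PSMG1 was higher, at 1131 in the shATMIN sample and 1040.1 in the neo control, a difference of 0.12.

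Of the activators, PSME1 and PSME2 form one ring that interferon also induces and that feeds peptides to HLA class I. As deposited they stood on either side of 0, but after scaling to the 75th percentile all 4 activators were higher, PSME1 at 0.11. PSME2 read 14019.8 in the shATMIN sample and 12844 in the neo control, a difference of 0.13, and PSME1 gave -0.12 and -0.06 on its 2 probes. PSME3, the nuclear activator, read 111 in the shATMIN sample and 115 in the neo control. PSME4, known as PA200, read 497 in the shATMIN sample and 582 in the neo control, a difference of -0.23, and its recovered readings of 493 and 499.9 in the shATMIN sample did not overlap the 570.3 and 595 in the neo control.

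Genes of the core that belong to other tissues were dim. PSMA8, an alpha subunit of the testis, read 3.5 in the shATMIN sample and 2.5 in the neo control, and PSMB11, a beta subunit of the thymic cortex, 6.0 in the shATMIN sample and 7.0 in the neo control, and no fold is given for either. The symbols also bring in 2 proteins that are not subunits. PSMC3IP, a factor of homologous recombination, read 1923 in the shATMIN sample and 1872 in the neo control. PSME3IP1, which binds PSME3, read 781 in the shATMIN sample and 1214 in the neo control, 1.55-fold higher in the neo control, and is the only one of the 47 past 1.5-fold. Without these 2 the median of the remaining 45 was -0.06 and 0 were past 1.5-fold.

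A view of the technical spread came from dim values, which could be written as the mean of 2 whole-number readings, each times a factor fixed for the sample. Whether these are the 2 arrays listed is not stated in the labels. Readings were recovered for 11 probes of 11 proteasome genes with intensities under 1000 in both samples. The ranges of the readings overlapped between the samples for 7 of them and did not for 4, those of PSMC3, PSME4, PSMF1 and PSMG4, all lower in the shATMIN sample. Over all 12624 such probes of the array, 46.3% had readings that did not overlap and were lower in the shATMIN sample and 23% had such readings that were higher, so the 4 of 11 are not more than the array as a whole gives. PSMG4 read 273 and 280.5 in the shATMIN sample against 290.4 and 297 in the neo control, a difference of -0.08. These readings are of 1 sample per group and do not cover the spread between cultures or clones.

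Proteins that work with the particle included larger differences than its subunits. Of 14 compared components and partners with other symbols 11 were lower, against 70.7% of all compared genes, and 10 after scaling to the 75th percentile, with a median of -0.37, or -0.21 relative to all compared genes. The true subunits among them, named here for that role, lay within the range of the compared cap: ADRM1, the ubiquitin receptor, gave -0.25 and SEM1, a small lid protein, 0.05. POMP, a core chaperone also named for its role, gave 0.06. The genes furthest from 0 were transient partners. ZFAND5, which stimulates the proteasome, read 2987 in the shATMIN sample and 6052 in the neo control, a difference of -1.02, with -0.69 and 0.00 on its other probes. RAD23B, which shuttles ubiquitylated proteins to the cap, read 2210.0 in the shATMIN sample and 4275 in the neo control, a difference of -0.95, with -0.93 on its second probe. UBE3C, a ubiquitin ligase that works on the proteasome, read 1402 in the shATMIN sample and 2596 in the neo control, a difference of -0.89, and AKIRIN2, which brings proteasomes into the nucleus, gave -0.61 and -0.36.

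The counts of lower genes in the lists that follow stand beside 70.7% lower over all compared genes as deposited and 41.2% after scaling to the 75th percentile. Upstream of the particle, 15 of 17 compared ubiquitin, E1 and E2 genes were lower, with a median of -0.21, but 8 of 17 after scaling to the 75th percentile. UBA1, the main enzyme that activates ubiquitin, read 397 in the shATMIN sample and 859 in the neo control, a difference of -1.11 on its single probe. The ubiquitin-conjugating enzyme genes UBE2N, UBE2B and UBE2G2 gave -0.83, -0.80 and -0.70. All 14 compared genes of the p97 segregase VCP, which extracts ubiquitylated proteins, and of its cofactors were lower as deposited, with a median of -0.33, and 10 of the 14 after scaling to the 75th percentile. Among them NPLOC4 gave -0.84, FAF1 -0.66, UBE4B -0.59 and ASPSCR1 -0.54, while VCP itself, which also stands in the list of regulators, gave -0.18. Of 8 peptidases that act on products of the proteasome 7 were lower, with a median of -0.23, and 4 of 8 after scaling to the 75th percentile. TPP2, a giant peptidase, read 2149 in the shATMIN sample and 4545 in the neo control, a difference of -1.08, where LAP3, NRDC and DPP3 lay between -0.33 and -0.30.

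Of 14 compared regulators of proteasome gene transcription 11 were lower as deposited and 6 after scaling to the 75th percentile, with a median of -0.14 as deposited, near the share and the median of all compared genes. NFE2L1, named for its role as the factor that raises proteasome genes when proteasomes are inhibited, read 1444 in the shATMIN sample and 1775 in the neo control, a difference of -0.30. FBXW7, which targets NFE2L1 and other proteins for degradation, gave -0.76, with -0.53 and -0.47 on its other compared probes. OGT, MAFK and NFYC gave -0.53, -0.46 and -0.36, and further compared probes gave 0.22 for MAFK and -0.43 and 0.08 for NFYC. Of 19 compared genes of interferon signalling and peptide loading 12 were lower and 7 higher, with a median of -0.20, and 8 were lower and 11 higher after scaling to the 75th percentile. They included TAP2 at -0.78, the chaperones CALR at 0.68 and CANX at -0.52, and the peptide trimming enzyme ERAP1 at -0.62 on one probe and 0.21 on another. After CALR the highest of the 7 were HLA-C at 0.37, HLA-F at 0.34 and IFNGR1 at 0.30. HLA-C was dim, at 110 in the shATMIN sample and 85 in the neo control on its single probe. Further probes of HLA-F gave 0.31 and 0.01. IRF1, a factor that induces immunoproteasome genes and is named for that role, read 2422 in the shATMIN sample and 2951 in the neo control, a difference of -0.28, with -0.03 on its second probe.

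Placed side by side, the medians were 0.23 for the 3 immunoproteasome subunits, -0.04 for the 14 genes of the core and -0.09 for the 17 of the cap. Relative to all compared genes they were 0.39, 0.12 and 0.07. The 0.23 is the value of PSMB8, the middle one of the 3, and PSMB10, at -0.03, lay within the core range of -0.51 to 0.14. The place of the immunoproteasome above core and cap was found in each setting, while that of core against cap was not: without probes over 60000, which removes saturated core probes, the core median was -0.15 and that of the cap -0.09. All settings used the same 2 samples and scaling moves the classes nearly alike, so a kept order is no separate evidence. Neither the place of the immunoproteasome nor that of core against cap was tested, since 1 sample per group allows no test.

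**Figure D5:**
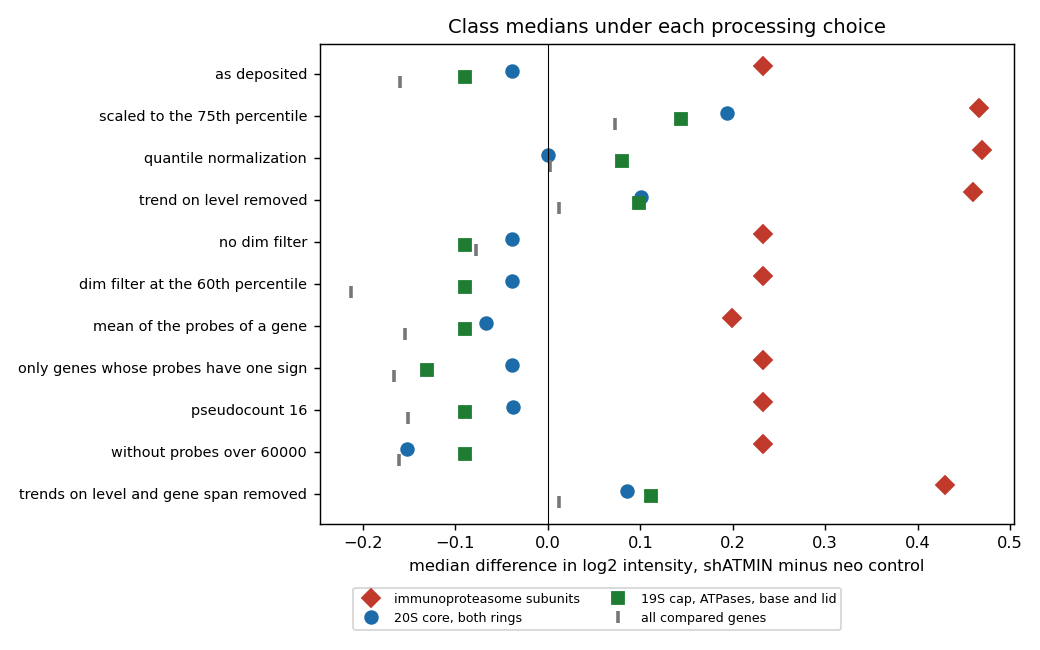
Median difference, shATMIN minus neo control, of the 3 immunoproteasome subunits, the 14 core genes, the 17 cap genes and all compared genes (x axis, log2) under each processing choice (rows). The immunoproteasome median lies to the right of the others in each row, between 0.20 and 0.47, while core and cap change places. All rows are of the same 2 samples, and as deposited the immunoproteasome median is the value of PSMB8.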

How the data were processed

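Intensities were deposited by the authors as 1 linear value per probe and sample, and the samples keep unequal quantiles. Per the labels, RNA was amplified before labelling. How background was corrected and how the 2 arrays per sample were combined is not stated in the labels. Negative values became 0 and all were taken as log2(intensity + 1), which understates differences of dim genes. Probe names came from the platform annotation, updated through RefSeq (GRCh38.p14). Of 31741 probes 24740 named 1 gene. No gene positions are given for probes, because the labels do not state the build of the array. The brightest probe stood for a gene, and a gene was compared where its mean log2 level reached the 40th percentile of all probes, an intensity of 58.9. Values over 60000 were taken as near the top of the scale. The number of unassigned columns was 0.

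Members, classes and gene lists were chosen with earlier results of these data known. All members are accounted for, and up to 4 genes with the greatest absolute difference were named in each other list, besides ATMIN. POMP, ADRM1, SEM1, VCP, NFE2L1, IRF1 and TAP1 were named for their role. Outside these rules, HLA-C, HLA-F and IFNGR1 were named as the next higher genes of their list after CALR. Readings behind values under 1000 were recovered as 2 whole numbers times fitted factors (1.0019 and 0.9981 in the shATMIN sample, 1.0022 and 0.9978 in the neo control). The calculation was tested on simulated data. Trends were fitted by loess (span 0.3) in statsmodels 0.14.6, under Python 3.11.15 with NumPy 2.4.6 and pandas 2.3.3, and drawn with matplotlib 3.10.9. Alternatives were scaling to the 75th percentile, quantile normalization, removal of trends, other dim filters, another pseudocount, other rules for probes and removal of values over 60000.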

Additional observations from a re-analysis of the deposited data

How the results depend on the processing

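Differences of single genes were taken as unmoved within 0.34, the SD between probes of a gene, and medians within 0.1. No paired analysis was possible because each group has 1 sample. With the size rule at 1.5-fold, 1 proteasome gene was lower in place of 0. The median over proteasome genes, -0.06 as deposited, was 0.18 with scaling to the 75th percentile, 0.0576 with quantile normalization, 0.10 with the trend on level removed and 0.0995 with trends on level and gene span removed, an alternative chosen after seeing the data. The median over all compared genes moved in the same settings, to 0.07, 0.00222, 0.01 and 0.01, and relative to it the proteasome median stayed between 0.01 and 0.15. The core, 0.12 above all compared genes as deposited, was at -0.00222 with quantile normalization and 0.00837 without probes over 60000. The list of interferon signalling and peptide loading, at -0.04, was at 0.0611 with the mean of the probes of a gene and at 0.11 with genes whose probes have one sign. The ubiquitin list, at -0.05, was at -0.20 with the mean of the probes, and the peptidases, at -0.07, were at 0.0338 with quantile normalization. The causes were not tested. Of the differences of genes named by the rules above under these settings 884 stayed within 0.34 and 3 did not. Those were of ERAP1, TP63 and ZFAND5, which became -0.21, -0.63 and -0.57 with the mean of the probes. This count does not show that directions held. The tolerance is wider than most differences of proteasome genes, of which 42 of 47 were within 0.3. Scaling to the 75th percentile shifts all genes nearly alike by less than 0.34. A change of sign such as that of PSMB10, from -0.03 to 0.20, was counted as unmoved. Saturation limits PSMA2, PSMB4 and PSMB6, and signal near background PSMA8, PSMB11 and PSMD9.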
